A study of Mus musculus with 2 samples.

Results

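The genes described here encode the signalling machinery that acts downstream of the gonadotropin-releasing hormone (GnRH) receptor. They are 52 of the 21938 protein-coding genes of GENCODE vM21 on the main chromosomes of GRCm38, and they were taken by name from 10 roles: G protein alpha subunits, phospholipase C beta, protein kinase C (PKC), inositol trisphosphate (IP3) receptors, calmodulin and calmodulin-dependent kinase II (CaMKII), adenylyl cyclases, protein kinase A (PKA), Src with Ras and its adaptors, the mitogen-activated protein (MAP) kinase cascade and nuclear targets. All 52 were found in the annotation. The assay was ATAC-seq, in which the Tn5 transposase inserts sequencing adapters into open DNA. The cells were LβT2, an immortalized mouse line derived from anterior pituitary gonadotropes and used at passage 21. Both samples, replicate 1 and replicate 2, belonged to a single condition, 2 nM GnRH given as a pulse every 2 h. There were 4 pulses over 6 h 45 min, and cells were collected 45 min after the last. Untreated cells were not analysed here, which limits the values to treated cells of 1 line, and no effect of GnRH can be read from them. Nothing in the labels says whether the 2 samples came from separate cultures.

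In gonadotropes, the GnRH receptor couples mainly to Gq/11. Phospholipase C beta then splits a membrane lipid into IP3, which releases calcium through the IP3 receptors, and diacylglycerol, which activates PKC. Calcium acts through calmodulin and CaMKII, PKC and Src feed the extracellular signal-regulated kinase, c-Jun N-terminal kinase (JNK) and p38 branches of the MAP kinase cascade, and a Gs branch runs through adenylyl cyclase and PKA to the nucleus.

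Each replicate came with its own list of peaks, called by the authors with MACS2. A peak was assigned to a promoter when its summit lay within 1 kb of any annotated transcription start site (TSS) of the gene. Peak height is given as fold enrichment, the tags at the summit plus 1 divided by the background plus 1, and tags are mapped read ends extended by MACS2. The lists held 58519 peaks in replicate 1 and 64984 in replicate 2. Their values corresponded to a background of 3.05 and 3.54 tags, and the lowest listed summits held 10 and 11 tags. A gene without a promoter peak is therefore one with too few tags to be listed at this depth and background, not one shown to be closed. The background depends on the genome-size setting of MACS2, which is described with the processing below. Gonadotrope markers checked the label of the cells: the promoters of Lhb, Cga and Gnrhr had a peak in both replicates, that of Nr5a1 in replicate 2 only and that of Fshb in neither. Promoters of Prl, Gh, Tshb, Pomc and Pou1f1, which mark other pituitary lineages, had none.

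A promoter peak was listed for 26 of the 52 pathway genes in replicate 1 (50%), beside 32.3% of all protein-coding genes. In replicate 2 it was listed for 36 (69.2%, beside 44.4%), and in both replicates for 25 (48.1%, beside 30.8%). The share was higher than among all coding genes, but so was the share of CpG-rich promoters. CpG-rich promoters, with an observed over expected CpG count of at least 0.6 in the 1 kb around a TSS, were found at 47 of the 52 pathway genes (90.4%) and at 52.5% of all coding genes. Of these 47, 51.1% had a promoter peak in replicate 1, 70.2% in replicate 2 and 48.9% in both. All coding genes with a CpG-rich promoter gave 50.2%, 69.7% and 48.8%. Among CpG-rich promoters the pathway genes were therefore at the level of the background. The median number of annotated TSSs was 7 for the CpG-rich pathway genes and 5 for all CpG-rich coding genes, and its part in these shares was not tested. A second list of 31 genes assigned to GnRH signalling had a promoter peak in replicate 1 for 15 (48.4%), in replicate 2 for 18 (58.1%), in both for 14 (45.2%) and in neither for 12 (38.7%).

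**Figure D1:**
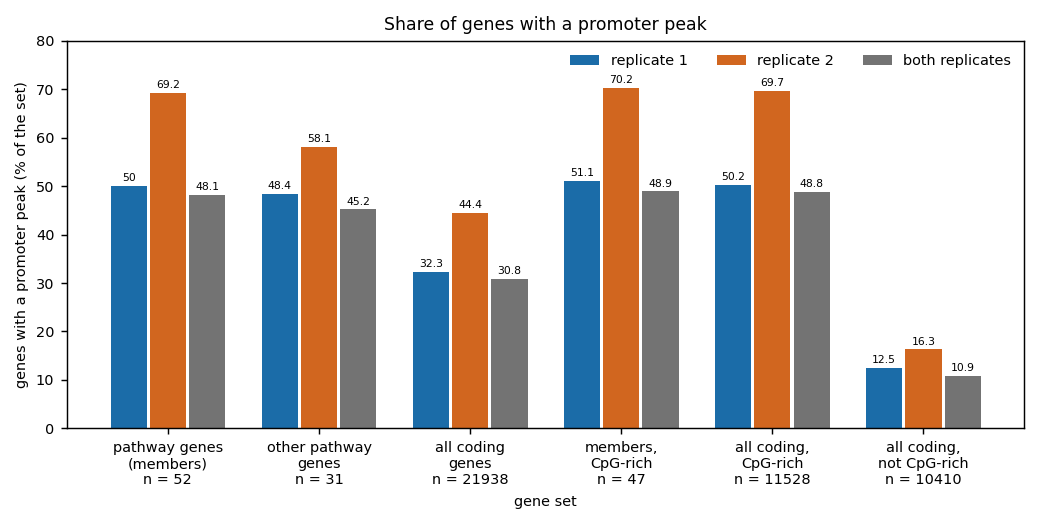
Bars give the percentage of genes in each set with at least 1 promoter peak in replicate 1, in replicate 2 and in both replicates, with the number of genes under each set. The 52 pathway genes lie above all coding genes (48.1% beside 30.8% in both replicates), while within CpG-rich promoters both sets stand at 48.9% and 48.8%.

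Promoter peaks at the pathway genes had a lower median fold than those of all coding genes. The median was 4.32 in replicate 1 and 5.84 in replicate 2, and that of all coding genes with a promoter peak was 4.94 and 6.17. Among genes with a peak in both replicates it was 4.44 and 6.17 for the pathway genes and 4.94 and 7.28 for the 6751 coding genes. The median pathway gene with a promoter peak stood at percentile 35.7 and 46.6 of all coding genes with one in that replicate, a description with no test. Of the 25 genes with a peak in both replicates, 9 were above the 50th percentile in both. Only Plcb4, whose highest peak was a tandem repeat described below, was above the 90th in both. No matching share over the 6751 coding genes is given for these counts. The median percentile in replicates 1 and 2 was 39 and 51.2 for the 25 genes, beside 50.4 and 63.8 for the 6751. In 23 of the 25 the fold was higher in replicate 2, a share of the kind seen across the libraries, since the same held for 89.7% of the 6751 coding genes with a peak in both. The exceptions were Prkcd and Map2k6. Across these 25 genes Spearman's rho between the replicates was 0.731, beside 0.757 across the 6751 coding genes; genes of 1 library share its depth and are not independent replicates. The highest summits of both replicates were a median of 65 bp apart, and within 200 bp of each other at 22 of the 25 genes. These distances are not given for the 6751 coding genes.

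**Figure D2:**
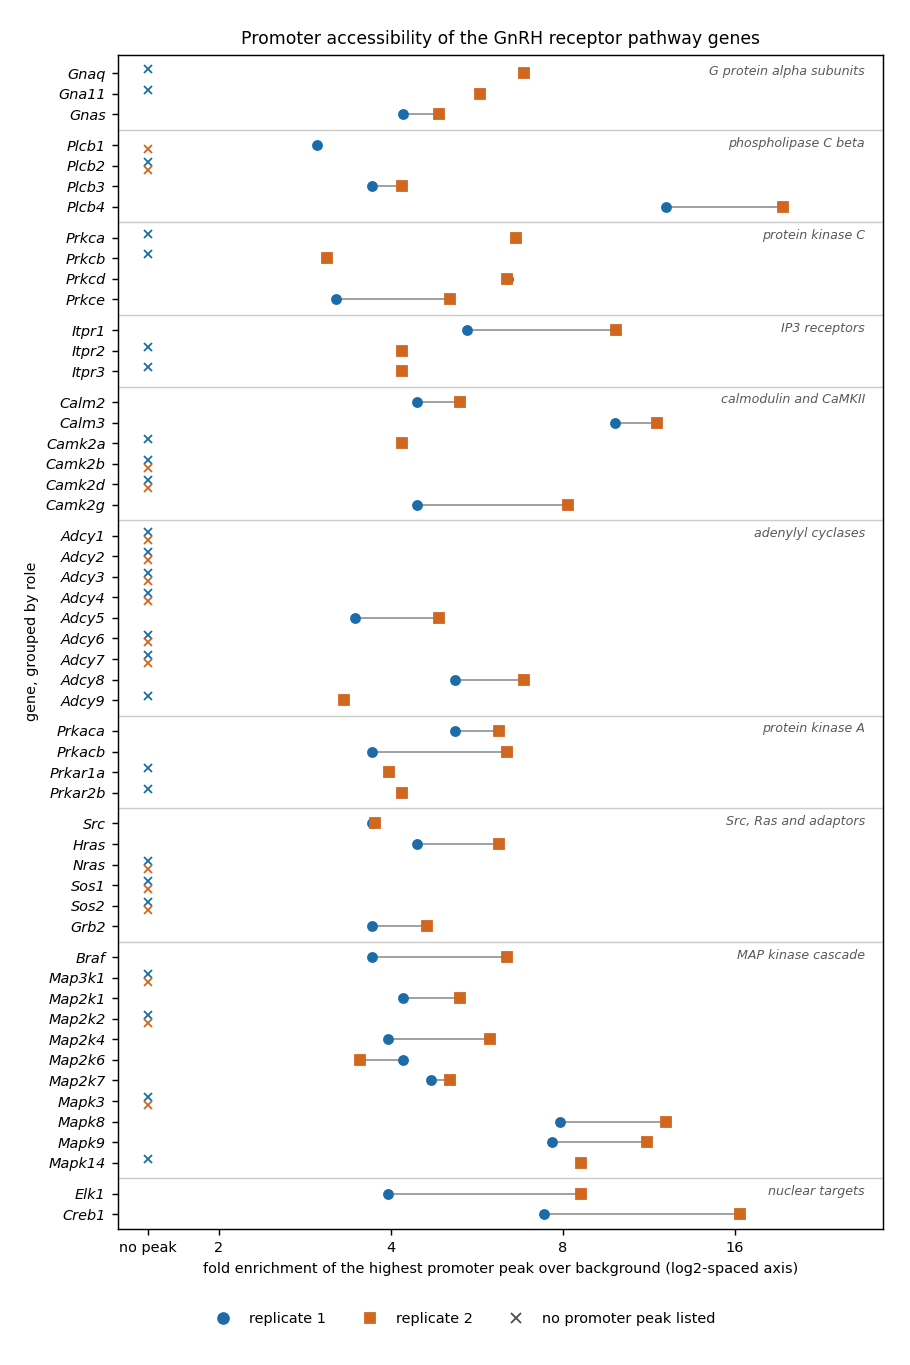
Fold enrichment of the highest promoter peak (log2-spaced axis) of each of the 52 genes, grouped by role, in replicate 1 (circles) and replicate 2 (squares), with a cross at the left where no promoter peak was listed. Plcb4, Creb1, Calm3, Mapk8 and Mapk9 reach a fold above 11 in replicate 2, and 6 of the 9 adenylyl cyclase genes have no promoter peak in either replicate.

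Sequences at the promoter summits show what these windows are made of. The replicate 2 summit and 50 bp on either side are given below 5′ to 3′ on the gene's strand of GRCm38, for the 5 highest promoter peaks whose replicate 2 summit lies in single-copy sequence with at most 30 exonic bases. Capitals mark CpG dinucleotides, except in Plcb4, where they mark 1 period of a tandem repeat.
Calm3, chr7:16924344-16924444, minus strand: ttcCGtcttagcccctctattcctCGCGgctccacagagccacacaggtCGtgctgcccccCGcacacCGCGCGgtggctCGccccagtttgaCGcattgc
Mapk8, chr14:33447155-33447255, minus strand: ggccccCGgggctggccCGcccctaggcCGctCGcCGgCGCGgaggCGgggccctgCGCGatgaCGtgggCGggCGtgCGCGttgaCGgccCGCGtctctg
Itpr1, chr6:108212977-108213077, plus strand: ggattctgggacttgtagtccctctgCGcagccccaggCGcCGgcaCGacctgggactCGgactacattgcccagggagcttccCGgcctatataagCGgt
Elk1, chrX:20950708-20950808, minus strand: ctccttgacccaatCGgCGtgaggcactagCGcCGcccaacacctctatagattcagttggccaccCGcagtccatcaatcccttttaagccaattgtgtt
Plcb4, chr2:135988638-135988738, plus strand: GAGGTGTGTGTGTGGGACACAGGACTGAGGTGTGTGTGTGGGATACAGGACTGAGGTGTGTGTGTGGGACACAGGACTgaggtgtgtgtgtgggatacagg
The Mapk8 window held 18 CpGs with 83.2% GC, Calm3 10, Itpr1 7 and Elk1 5. The Plcb4 window held none and was a tandem repeat. Its best period was 78 bp, a stretch that is itself made of shorter near-copies, and 95.9% of the bases of the sequence within 100 bp of the summit equalled the base 1 period further on.

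The receptor-proximal G protein genes all had a promoter peak in replicate 2. Gnaq and Gna11, which encode the alpha subunits that couple the receptor to phospholipase C, were listed in replicate 2 only, at a fold of 6.84 (30 tags) and 5.73 (25 tags). Gnas, the gene of the Gs alpha subunit that stimulates adenylyl cyclase, had a fold of 4.20 and 4.85 and 3 promoter peaks in each replicate. With only its outermost TSS it was no longer listed in both. Gnas is an imprinted gene with several alternative first exons, and its peaks lay at separate starts: 1 beside Gnas-201 in both replicates, 2 at Gnas-212 and Gnas-202 in replicate 1, a single wider one at Gnas-202 in replicate 2, and 1 beside Gnas-207 in replicate 2.

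The phospholipase C beta genes, whose products make IP3 and diacylglycerol, held both the highest promoter value of the pathway and genes with none or a low one. Plcb2 had no promoter peak. Plcb3 had a low one, with a fold of 3.70 and 4.19, whose summit was also within 1 kb of a start of Ppp1r14b. Plcb3 was no longer listed in both replicates with the outermost TSS or with transcripts that GENCODE tags as basic. Plcb1 was the only gene listed in replicate 1 alone (fold 2.96, 11 tags), and its summit sequence occurred at 321 places in the genome.

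Plcb4 had the highest promoter value of all 52 genes, with a fold of 12.1 in replicate 1 (48 tags, exact Poisson 95% interval 35.4 to 63.6) and 19.4 in replicate 2 (87 tags, 69.7 to 107). This peak was the tandem repeat printed above. Its summits lay 831 and 812 bp downstream of the start of Plcb4-213, inside the gene, and the 50 bp at the summit had 3 places in the genome in replicate 1 and 1 in replicate 2. Tandem repeats of this kind, with at least 80% of bases equal at 1 period, made up 0.466% of the highest promoter summits of all coding genes in replicate 1 and 0.339% in replicate 2. A second Plcb4 promoter peak lay 369 and 408 bp upstream of Plcb4-210, at the 5′ end of the gene, with a fold of 4.44 and 5.73 in single-copy sequence. Without the repeat, Plcb4 therefore kept its promoter peak in both replicates, at a height near the median of the pathway genes. Neither of these starts belongs to a transcript that GENCODE tags as basic, and Plcb4 had no promoter peak when only basic transcripts were used.

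All 4 PKC genes, whose kinases respond to diacylglycerol, had a promoter peak in replicate 2, and Prkcd and Prkce had one in both. The fold at Prkcd was 6.42 in replicate 1 and 6.39 in replicate 2, with 25 and 28 tags. At Prkce it was 3.21 and 5.07, and the summit lay 206 bp upstream of Prkce-202 in replicate 1 and 894 bp upstream in replicate 2. With a 500 bp promoter, Prkce was no longer listed in both. Prkca had a fold of 6.61 in replicate 2 only, with its summit 14 bp from the start of Prkca-201 and a start of Apoh within 1 kb. Prkcb had 3.09 in replicate 2 only, with 13 tags, close to the lowest value listed.

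Of the IP3 receptors, the calcium channels of the endoplasmic reticulum, Itpr1 was listed in both replicates, at a fold of 5.43 and 9.92 (21 and 44 tags). Itpr2 and Itpr3 were listed in replicate 2 only, both at 4.19 with 18 tags. Calcium released through these channels binds calmodulin. Calm3 was among the highest promoters of the pathway, at 9.88 (39 tags, 27.7 to 53.3) and 11.7 (52 tags, 38.8 to 68.2), and its peak was 862 and 1025 bp wide. Calm2, which encodes the identical calmodulin protein, stood at 4.44 and 5.29. Among the CaMKII genes, Camk2g had 4.44 and 8.16, Camk2a had 4.19 in replicate 2 only at a summit with 2 places in the genome, and Camk2b and Camk2d had no promoter peak. Camk2d had 26 annotated TSSs and a CpG-rich promoter, and its nearest summits were 98404 and 76896 bp away.

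Adenylyl cyclase genes, whose enzymes make cyclic AMP, had the smallest share of genes with a promoter peak of the 10 roles, 22.2% in replicate 1 and 33.3% in replicate 2, beside 50.2% and 69.7% of CpG-rich coding genes. These shares rest on 2 and 3 genes. Adcy5 and Adcy8, of the 9, had one in both replicates and Adcy9 had one in replicate 2 only (fold 3.31, 14 tags). Adcy1, Adcy2, Adcy3, Adcy4, Adcy6 and Adcy7 had none in either. All but Adcy4 of the 9 were CpG-rich. Adcy8 had a fold of 5.19 and 6.84 at a summit 728 and 924 bp downstream of Adcy8-203. Adcy5 had 3.46 and 4.85, spread over 2 promoter peaks in replicate 1 and 3 in replicate 2. Cyclic AMP activates PKA, whose catalytic subunit genes Prkaca (5.19 and 6.17) and Prkacb (3.70 and 6.39) had a promoter peak in both replicates. The regulatory subunit genes Prkar1a (3.97) and Prkar2b (4.19) had one in replicate 2 only.

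Src, Hras and Grb2 had a promoter peak in both replicates, and Nras, Sos1 and Sos2 had none. Hras, a small GTPase, had 4.44 and 6.17 at a summit shared with the start of Lrrc56, which lies within 1 kb. Grb2, the adaptor that brings Sos proteins to activated receptors, had 3.70 and 4.63. Src, a tyrosine kinase, had the lowest mean fold of this group, 3.70 and 3.75. Its summits lay 851 and 937 bp upstream of Src-208 and were, with those of Prkce and Adcy8 in replicate 2, among the highest promoter summits nearest to the 1 kb limit. Src was no longer listed in both replicates with a 500 bp promoter, the outermost TSS or basic transcripts. Of the genes without a promoter peak, those with a summit nearest outside that limit were Sos1, at 2573 and 2624 bp, and Adcy1, at 2657 bp in replicate 1.

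In the MAP kinase cascade 7 of the 11 genes (63.6%, beside 48.8% of CpG-rich coding genes) had a promoter peak in both replicates. All but Map2k6, which was among the 7, were CpG-rich. The JNK genes Mapk8 and Mapk9 stood highest, Mapk8 with 7.90 (31 tags, 21.1 to 44.0) and 12.1 (54 tags, 40.6 to 70.5) and Mapk9 with 7.65 (30 tags) and 11.2 (50 tags). The Mapk9 summit of replicate 1 fell on the start of Mapk9-205 itself. The kinases above them were lower. Map2k4 and Map2k7, which activate JNK, had 3.95 and 5.95 and 4.69 and 5.07, the latter with a start of Gm49320 within 1 kb of its summits, and Map2k6, which activates p38, had the lowest mean of the cascade, 4.20 and 3.53. Braf (3.70 and 6.39) and Map2k1 (4.20 and 5.29), of the extracellular signal-regulated kinase branch, had a peak in both replicates, whereas Map2k2, Mapk3 and Map3k1 had none.

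Mapk14, which encodes p38 alpha, had the highest peak listed in only 1 replicate. In replicate 2 its fold was 8.60, with 38 tags (26.9 to 52.2) at a summit 24 bp from the start of Mapk14-202. In replicate 1 no peak was listed within 39380 bp. Scaled to the background of replicate 1, 38 tags would be 32.8, well over the 10 tags of the lowest listed summit. Of the 2549 coding genes with a fold at least as high in replicate 2, 21 (0.824%) had no promoter peak in replicate 1. For the other genes listed in replicate 2 only, this share ran from 5.11% at Gnaq, 5.95% at Prkca and 10.1% at Gna11 to 29.9% at Prkcb. What set Mapk14 apart in replicate 1 was not tested.

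Both nuclear targets had a promoter peak in both replicates. Creb1, the cyclic AMP response element binding protein, had 7.41 in replicate 1 (29 tags, 19.4 to 41.6) and 16.3 in replicate 2 (73 tags, 57.2 to 91.8). The ratio of replicate 2 to replicate 1 was 2.20 at Creb1 and 2.18 at Elk1, beside a median of 1.39 over the 25 genes and 1.45 over the 6751 coding genes with a peak in both. Elk1, a ternary complex factor phosphorylated by MAP kinases, had 3.95 and 8.60. It was 1 of the 5 genes without a CpG-rich promoter, the others being Plcb2, Camk2a, Adcy4 and Map2k6. A −log10 q of at least 10 in both replicates was reached by 6 genes (11.5%, beside 10.8% of all coding genes): Plcb4, Prkcd, Calm3, Mapk8, Mapk9 and Creb1.

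**Figure D3:**
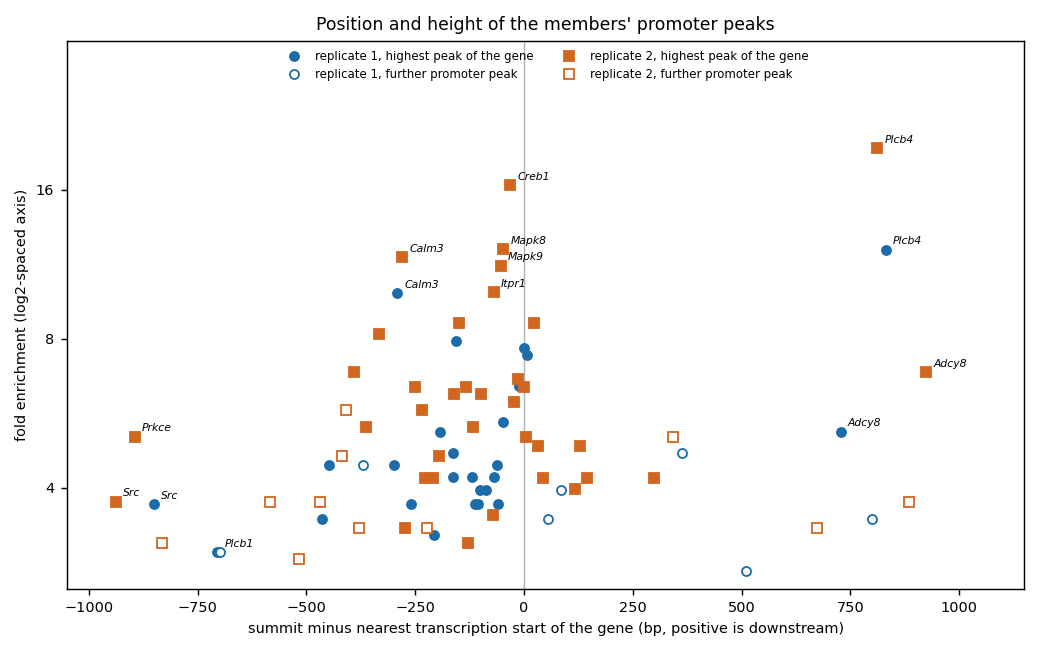
Each point is a promoter peak of a pathway gene, by the distance of its summit from the nearest TSS of that gene (x axis, bp, positive downstream) and its fold enrichment (y axis, log2-spaced). Filled points are the highest peak of a gene in that replicate. Most lie just upstream of a TSS, and the highest one, at Plcb4, lies 831 and 812 bp downstream.

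The highest promoter summit lay within 200 bp of a TSS for 16 of 26 genes in replicate 1 (61.5%, beside 73.8% of coding genes with a promoter peak) and 22 of 36 in replicate 2 (61.1%, beside 76.9%). Peaks were a median of 284 and 481 bp wide, beside 384 and 502 bp for all coding genes with a promoter peak. GC content within 100 bp of these summits had a median of 64.9% and 67.4%, beside 61.7% and 63.2% for all coding promoter summits. Motifs were searched on both strands by their letters. An SP1 box (GGGCGG) was found at 12 of 26 windows (46.2%, beside 49.4% of all coding promoter windows) and at 16 of 36 (44.4%, beside 51.7%). An NFY box (CCAATC) was found at 6 (23.1%, beside 20.6%) and 7 (19.4%, beside 19.8%). An ETS site (CCGGAAG) was found at 2 in each replicate (7.69%, beside 16.3%, and 5.56%, beside 16.6%), at Prkacb and Mapk9 in replicate 1 and at Plcb3 and Mapk9 in replicate 2. These shares rest on few windows. A full cyclic AMP response element (TGACGTCA) was found only at Braf, in both replicates (3.85%, beside 2.92%, and 2.78%, beside 2.89%), and an SF1 site (CAAGGTCA) only at Camk2g, in both (3.85%, beside 0.974%, and 2.78%, beside 0.945%). The SP1 box overlaps an EGR1 site (GCGNGGGCG) in part, and the latter was found once, at Creb1 in replicate 2 (2.78%, beside 6.24%). A YY1 site (GATGGCGGC) was found at Plcb3 in replicate 1 (3.85%, beside 1.13%) and at none in replicate 2 (beside 1.8%). An AP1 site (TGANTCA) was found at Src in replicate 1 (3.85%, beside 3.09%) and at none in replicate 2 (beside 2.69%). A PITX site (TAATCC) was found at Mapk8 in both (3.85%, beside 3.12%, and 2.78%, beside 2.73%). A match says that the letters are present, not that a factor was bound.

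Outside promoters, peaks were counted when their summit lay in the gene body or within 20 kb of it. There were 110 in replicate 1 and 130 in replicate 2, or 1.34 and 1.59 per 100 kb, beside 2.04 and 2.40 over all coding genes. Counting only summits whose 50 bp occur once in the genome, there were 70 and 106, or 0.856 and 1.30 per 100 kb, beside 0.866 and 1.21. The density over all summits was lower at the pathway genes than at all coding genes, and that of single-copy summits was close to it in both replicates. Each locus includes its 20 kb flanks, also where these hold promoters of other genes. Gene length differed between the sets, as given below, and its part in these densities was not tested. Introns held 61 and 68 of the peaks. Overlap with a peak of the other replicate was found for 64 of the 110 (58.2%, beside 65.1% over all coding genes) and 60 of the 130 (46.2%, beside 53.4%). Shared single-copy peaks came to 0.611 and 0.575 per 100 kb, beside 0.619 and 0.599. At least 1 shared single-copy peak was found at 24 genes (46.2%, beside 32.6% of all coding genes); the pathway genes were longer, with a median of 66391 bp beside 17425 bp. No peak outside the promoter was listed in either replicate for 8 of the 52 genes (15.4%, beside 30.3% of all coding genes): Calm3, Adcy6, Adcy7, Prkacb, Prkar1a, Nras, Map2k2 and Mapk14.

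These overlaps formed 63 pairs of peaks. In 14 pairs a summit lay in repeated sequence, in 19 it was single-copy but within 1 kb of a start of another coding gene, and 30 pairs, at 14 genes, were single-copy and elsewhere. The same split over all coding genes is not given here. The highest of the 63 pairs was in the group with repeated sequence. An intron of Sos1 had a fold of 21.2 and 25.1 at a sequence with 2 places in the genome, and an intron of Prkce 12.8 and 17.4 at one with 9 places. Both were tandem repeats, with periods of 68 and 50 bp.

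**Figure D4:**
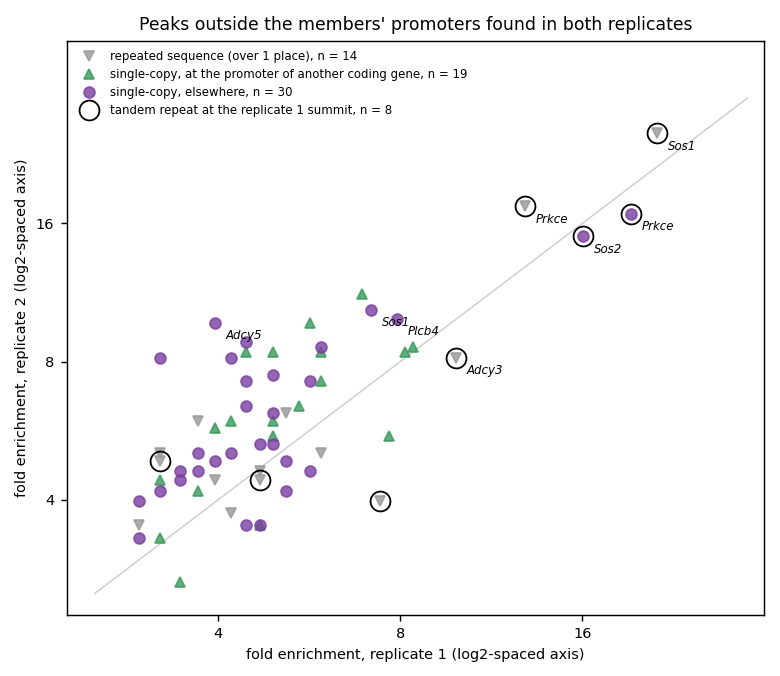
Each point is a pair of overlapping peaks outside the promoter of a pathway gene, with the fold enrichment in replicate 1 (x axis) and replicate 2 (y axis, both log2-spaced) and the line of equal fold. Rings mark the 8 pairs with a tandem repeat at the replicate 1 summit. The highest pairs, at Sos1, Prkce and Sos2, are ringed, and the single-copy pairs without a ring stay below a fold of 12.

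The 10 highest single-copy pairs included promoters of neighbouring genes, namely Hbp1 beside Prkar2b, Fkbp2 beside Plcb3, Ndst2 beside Camk2g, and Asf1b with Gm10644 beside Prkaca. The fold of these 4 ran from 5.93 to 11.2. A further 5 pairs belonged to Prkce, Sos2, Plcb4, Sos1 and Adcy8, and their replicate 2 summits with 50 bp on either side are given here on the strand of the gene, with CpGs in capitals, or 1 period of the repeat for Prkce.
Prkce, chr17:86151037-86151137, plus strand: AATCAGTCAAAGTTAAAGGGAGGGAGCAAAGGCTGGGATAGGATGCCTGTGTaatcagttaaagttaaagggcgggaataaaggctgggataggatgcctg
Sos2, chr12:69654161-69654261, minus strand: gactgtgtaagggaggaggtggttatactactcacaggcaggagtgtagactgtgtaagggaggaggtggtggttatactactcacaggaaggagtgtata
Plcb4, chr2:135766720-135766820, plus strand: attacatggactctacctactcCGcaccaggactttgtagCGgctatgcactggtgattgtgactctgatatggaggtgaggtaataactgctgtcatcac
Sos1, chr17:80483027-80483127, minus strand: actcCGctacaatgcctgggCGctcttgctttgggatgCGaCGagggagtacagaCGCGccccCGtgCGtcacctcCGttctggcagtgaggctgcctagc
Adcy8, chr15:64891424-64891524, minus strand: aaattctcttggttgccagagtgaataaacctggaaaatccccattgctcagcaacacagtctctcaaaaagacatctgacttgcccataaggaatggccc
The Prkce window, 16.7 kb upstream of the gene and 5912 bp from the nearest start, that of Srbd1, had a fold of 19.3 and 16.8 (77 and 75 tags) and was a tandem repeat with a period of 52 bp (92.6% of bases equal). The Sos2 window, in an intron 27.7 kb into the gene, had 16.0 and 15.0 (64 and 67 tags), and 80.7% of bases were equal at a period of 51 bp at the summit of replicate 1 and 66.7% at a period of 48 bp at that of replicate 2. Although their 50 bp occurred once in the genome, both windows thus held near-copies of themselves side by side.

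Sos1, a gene with no promoter peak, had a shared single-copy peak 2.57 kb upstream of the gene, with a fold of 7.16 and 10.4 (28 and 46 tags), and the start of Sos1 was the nearest annotated TSS of any gene. The window held 9 CpGs with 64.4% GC, unlike the others of this set. Plcb4 had an intron peak 108 kb into the gene with 7.90 and 9.92 (31 and 44 tags). Its summits lay 1964 and 1859 bp downstream of another annotated start of Plcb4, outside the 1 kb promoter limit. A further Plcb4 peak, 12.1 kb upstream of the gene, had 5.68 and 7.28 and was 2102 bp from a start of the lincRNA gene Platr3. An intron peak of Adcy8, 30.9 kb into the gene, had 5.93 and 8.60 (23 and 38 tags) in a window with 44.6% GC and no CpG.

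Further single-copy pairs were found at genes of the same branches. Adcy5 had an intron peak 86.3 kb into the gene (3.95 and 9.70) and another 14.8 kb upstream (4.44 and 8.82). Creb1 had an intron peak at 19.5 kb (4.94 and 7.50). Itpr1 had intron peaks at 318 kb (4.20 and 8.16) and 36.2 kb (4.44 and 7.28). Prkce held the most peaks outside its promoter of any pathway gene in each replicate, 10 and 12, or 1.91 and 2.29 per 100 kb of a long gene, and 7 were shared in each. Mapk8 held 8 and 6 (7.94 and 5.96 per 100 kb), Plcb3 4 and 7 (7.87 and 13.8, all within 1 kb of a start of another coding gene) and Adcy5 3 and 9 (1.61 and 4.82). At Plcb1, whose promoter peak was in repeated sequence, a shared single-copy peak lay 475 kb into the gene with a fold of 4.69 and 5.29.

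No promoter peak in either replicate was listed for 15 genes (28.8%), beside 54.1% of all coding genes and 28.8% of those with a CpG-rich promoter. Of the 15, 13 were CpG-rich, as were 23 of the 25 with a promoter peak in both replicates. They were Plcb2, Camk2b, Camk2d, Adcy1, Adcy2, Adcy3, Adcy4, Adcy6, Adcy7, Nras, Sos1, Sos2, Map3k1, Map2k2 and Mapk3. A summit within 5 kb of a TSS was found for 3 of them, and 4 (Adcy6, Adcy7, Nras and Map2k2) had no peak in the gene or within 20 kb in either replicate. By role, G protein, PKC, IP3 receptor, PKA and nuclear target genes all had a promoter peak in at least 1 replicate. In contrast, 6 of 9 cyclase genes (66.7%) and 3 of 6 genes of the Src, Ras and adaptor group (50%) had none, beside the same 28.8% of CpG-rich coding genes. Counts by role rest on 2 to 11 genes and were not tested.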

How the data were processed

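ATAC-seq of LβT2 cells gave 2 replicates of 1 condition. In the methods, the authors state that Bowtie2 placed reads on GRCm38, that duplicates were dropped and that MACS2 called peaks in each sample with tags extended to 200 bp. The MACS2 setting named for genome size is the fly preset, which raises the background, so fold and significance are relative to that setting. The deposited columns are a peak's start, end and summit, its score, its fold enrichment as a ratio to background, and its p-value and q-value, both as −log10.

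Tags and background were solved from the fold and p-value of each peak, and the recomputed −log10 p differed by at most 3.98e-05 from the deposited one, over peaks with −log10 p below 150. Everything was computed with numba 0.67.0, scipy 1.17.1, pandas 2.3.3 and numpy 2.4.6 in Python 3.11.15, and drawn with matplotlib 3.10.9, from GENCODE vM21 and the GRCm38 sequence. Copy number is the number of places, on either strand, that hold the 50 bp at a summit. It was over 1 for 66.9% of the summits in replicate 1 and 61.2% in replicate 2. Shared peaks overlap by at least 1 bp. Tandem repeats were scored over periods of 2 to 100 bp, a measure added after the values were seen. Scripts were tested on simulated data. Tags limit the precision of a value (median 14 and 16 per peak), and Poisson intervals cover counting error only.

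With 1 condition and n = 2, no groups of samples were compared, and shares of genes stand beside those of all protein-coding genes with no test. The pathway genes and lists were chosen with earlier results of these data known. Named in the text are every pathway gene with its promoter status, values for the families of paralogues, the highest and lowest of the other roles and all genes listed in 1 replicate, the 10 highest shared single-copy peaks outside promoters (1 is not reported here), and the sequences of the 5 highest promoter and 5 highest other summits that were single-copy (promoters in replicate 2) with at most 30 exonic bases. Further values were chosen after they were seen. Alternatives concerned the threshold on q, promoter width, TSS annotation, copy number, flank, overlap, the genes compared and leaving out either replicate. Gene expression and read coverage were not analysed here.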

Additional observations from a re-analysis of the deposited data

How the results depend on the processing

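The count of 25 pathway genes with a promoter peak in both replicates fell to 13 (25%, beside 20.1% of all coding genes) at a −log10 q of at least 5 and to 6 (11.5%, beside 10.8%) at 10. Under the other promoter, TSS, overlap and copy-number settings it ran from 22 to 25 of the 52 genes, beside 27.8% to 32.6% of all coding genes. With CpG-rich promoters only it was 23 (48.9%, beside 48.8%). Plcb4, the highest, lost its call with basic transcripts, Src with a 500 bp promoter, the outermost TSS or basic transcripts, Plcb3 with the outermost TSS or basic transcripts, Gnas with the outermost TSS and Prkce with a 500 bp promoter. Leaving out a replicate gave 26 (50%, beside 32.3% of all coding genes) and 36 (69.2%, beside 44.4%). The median fold of 5.08 over both replicates became 7.31 at a −log10 q of at least 10, ran from 4.32 to 5.84 with 1 replicate left out and was 5.03 without tandem repeats, an alternative chosen after seeing the data; measured as −log10 q the median was 8.21. The count of 64 shared peaks outside promoters was 14 at a −log10 q of at least 10, 40 with a 5 kb flank, 34 in the gene body alone, 50 for single-copy summits, 44 at an overlap of 50% and 56 without tandem repeats, and with 1 replicate left out all peaks of the other were counted, 110 and 130. Median GC content at promoter summits stayed between 64.9% and 67.4%. No paired analysis was possible because there was 1 group and no test. With 10 or 11 tags as the lowest listed summit, a promoter just below that level and a closed one give the same record.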
